A study of Drosophila melanogaster with 62 samples.

Results

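The elav-rbp9 double mutant lacks a pair of genes of the ELAV family, and the authors listed 149 genes in which early double mutant embryos used a transcript segment less than wild type. All rows of the authors' deposited table for this comparison were taken, with no further choice by measured values. The table itself holds only rows with a low fold and a small adjusted p, so its genes were selected on these values. The list is 149 of 12624 genes that have at least 2 segments in the authors' early annotation (1.18%). The number of genes that the authors tested is not given in the sources used here, so this percentage is of genes that could have been listed. The series holds 62 libraries, of which 58 are from embryos. Each group compared here has 3 libraries of poly(A) RNA, made from pools of male Drosophila melanogaster embryos aged 14 to 16 h. One group is labelled elav-rbp9 mutant and the other wild-type, and the alleles and parental strains are not given in the labels. Other groups used below are the single mutants elav, rbp9 and fne, the double mutant elav-fne and the triple mutant elav-fne-rbp9 of the same age (3 libraries each), a set of 3 fne-rbp9 libraries whose stage labels conflict, elav (3), fne (4) and elav-fne (5) mutants aged 18 to 22 h with 4 wild-type libraries, and a second experiment. At both ages, that experiment has 3 libraries per group, and its groups are nFne, elav-nFne and a wild type of its own. Expression levels are also taken from 2 wild-type libraries of adult heads, which differ from all these groups in age and tissue. In the study, as far as is known, nFne denotes the isoform of FNE that can enter the nucleus, and the question asked of it is whether FNE can replace ELAV. The names nFne and elav-nFne have the same form as those of the other mutants. These groups are therefore read here as mutants of that isoform, not as embryos given more of it.

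ELAV, FNE and RBP9 are paralogous RNA-binding proteins of neurons. ELAV is known to bind nascent transcripts near proximal cleavage sites, so that RNA polymerase goes on to a distal site and the mRNA carries a longer 3′ UTR. Alternative polyadenylation of this kind gives many neuronal mRNAs extra 3′ UTR sequence, where translational repressors, microRNAs and localisation factors can bind. ELAV is nuclear in most neurons, whereas FNE and RBP9 have been found largely in the cytoplasm. A comparison of elav-rbp9 with wild type asks what is lost when both ELAV and RBP9 are missing while FNE is intact.

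The authors' log2 fold is the relative use of a segment, mutant over wild type, within the other segments of its gene. A negative value means that the mutant used the segment less, whatever happened to the level of the gene. Values per library were not used here, because the files hold fitted values of each group only. The libraries are of whole embryos, so fewer neurons and less use of a segment per neuron cannot be told apart. A fitted use score for each group stands beside the folds, and it is on the authors' transformed scale, so the ratio of 2 scores is not the fold. Depth per library is unknown. The mean normalised count of the listed segments ran from 15.4 (Eip75B) to 1396 (14-3-3epsilon), with a median of 123, in the authors' deposited table. The median dispersion of the listed rows was 0.00373, whose square root corresponds to a spread of 6.10% between libraries beyond counting error. These rows were selected for a small adjusted p, which a low dispersion favours, so the value does not describe genes outside the list. How the dispersion was estimated is not stated. The file was tested for its limits: no row had an adjusted p of 0.0001 or more or a fold above -0.75, so the list can hold only decreases.

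The 149 log2 folds in the authors' deposited table ran from -6.47 at CG43759 to -0.75 at the zinc finger gene jing. Their median was -1.47, with quartiles of -2.09 and -1.09. Of the 149 genes, 122 had a fold of -1 or lower, 41 of -2 or lower and 14 of -3 or lower. The highest adjusted p among the listed rows was 8.6e-05, for put and CadN, and for fne and Cam it is listed as 0. The 5 rows nearest the upper limit were RhoGAPp190 (-0.78), CASK (-0.78), Atpalpha (-0.77), luna (-0.76) and jing (-0.75), in the authors' deposited table. The fitted use score had a median of 25.04 in wild type and 15.7 in the mutant.

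Within the list, low folds were found more often at segments with few counts. Across the 149 genes, Pearson's r between log2 fold and log2 mean count was 0.34 and Spearman's rho was 0.35. The mean count is an average over mutant and wild type, so a lower use in the mutant lowers it as well. A segment with few counts also needs a larger drop to meet the limit on adjusted p. The list's limits alone can thus give such a correlation, and their part in it was not tested. With segment width the correlation was weaker (Pearson's r = 0.13, Spearman's rho = 0.037, n = 149, on log2 width). These correlations are across genes of a single comparison, and genes are not independent replicates.

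**Figure D1:**
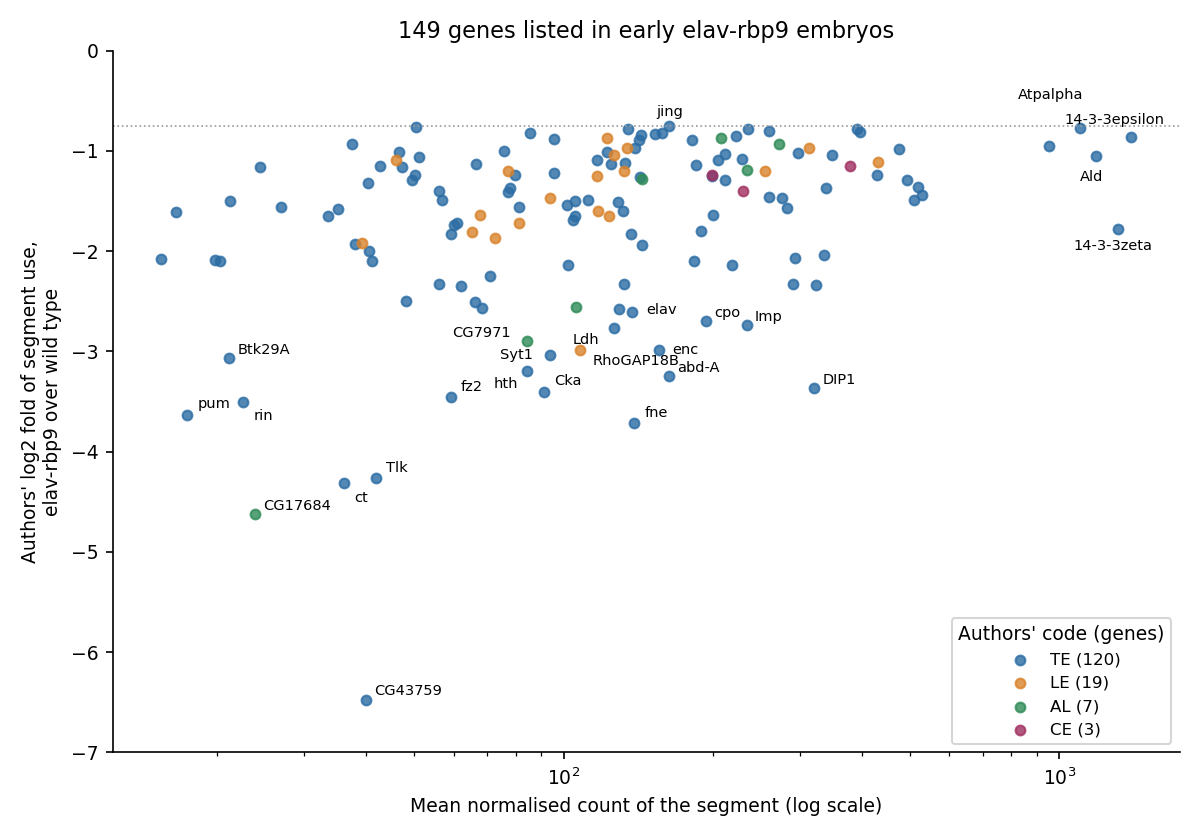
Authors' log2 fold of segment use in early elav-rbp9 embryos over wild type (vertical axis) against the mean normalised count of the segment (horizontal axis, log scale) for 149 genes, coloured by the authors' segment code. The 20 lowest folds and a few further genes are named, the dotted line marks the list's limit of -0.75, and the 4 genes with folds under -4 all have mean counts below 50.

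The mutated genes and their paralog come first. elav itself (FBgn0260400) lies on X, and its listed segment spans X:509880-513105 on the minus strand in dm6 coordinates, 3226 bases wholly in annotated 3′ UTR. Its fitted use score was 45.5 in wild type and 22.3 in the mutant, and its log2 fold was -2.61 in the authors' deposited table (adjusted p = 3.2e-42). Relative use within a gene does not check whether the gene is mutated, because a lower level of the whole transcript leaves it unchanged. Rbp9 (FBgn0010263), on 2L, has no row in the elav-rbp9 list, so the second mutated gene could not be looked at. fne (FBgn0086675), which is intact in these embryos, had a joined row of 4 segments at X:12946693-12950417, 3727 bases of 3′ UTR. The use score of this distal 3′ UTR was 41.8 in wild type and 13.9 in the mutant, and the authors' deposited table gives -3.72 as its log2 fold, the fifth lowest of the list.

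Of 50 RNA-binding and post-transcriptional regulator genes in the background, 15 had a row (30%), against 1.18% of all genes with at least 2 segments. Their median log2 fold was -2.09, beside -1.47 over all 149 listed genes. The gene lists were written with earlier results of these data known, so these counts are a description. Besides fne and elav, the lowest folds in the authors' deposited table belonged to pum (-3.63), rin (-3.50) and Imp (-2.74). Pumilio binds 3′ UTRs and represses translation, and its use score fell from 11.2 in wild type to 3.2 in the mutant at a 1235-base segment, 3R:9066343-9067577. Rasputin, encoded by rin, is the fly G3BP of stress granules, and its row rested on a mean count of only 22.6. IMP, an mRNA-binding protein that acts in RNA localisation and in the timing of neural progenitors, had a 1546-base segment at the end of a 3′ UTR with 8025 bases upstream, and use scores of 36.7 and 16.2.

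Hrb27C (-2.33) and sm (-2.09), both hnRNP genes, lost use of far longer stretches in the authors' deposited table, 3383 and 10014 bases. The neuronal RNA-binding protein gene shep had a fold of -2.34 at 323 mean counts. Sxl, the master gene of female development, had -2.09 in these male embryos, at a low mean count of 19.8, and its paralog ssx had -1.13. The list also held the translational repressors mei-P26 (-1.72) and brat (-1.04), which share a TRIM-NHL type of protein, in the authors' deposited table. Musashi (msi, -1.51), the CELF family gene bru3 (-1.47) and the CPEB gene orb2 (-0.84) completed the 15. The mei-P26 segment was the widest of all 149, with 11011 bases. cpo, an RNA-binding protein gene outside the list as written, had -2.70 and was the 20th lowest fold.

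**Figure D2:**
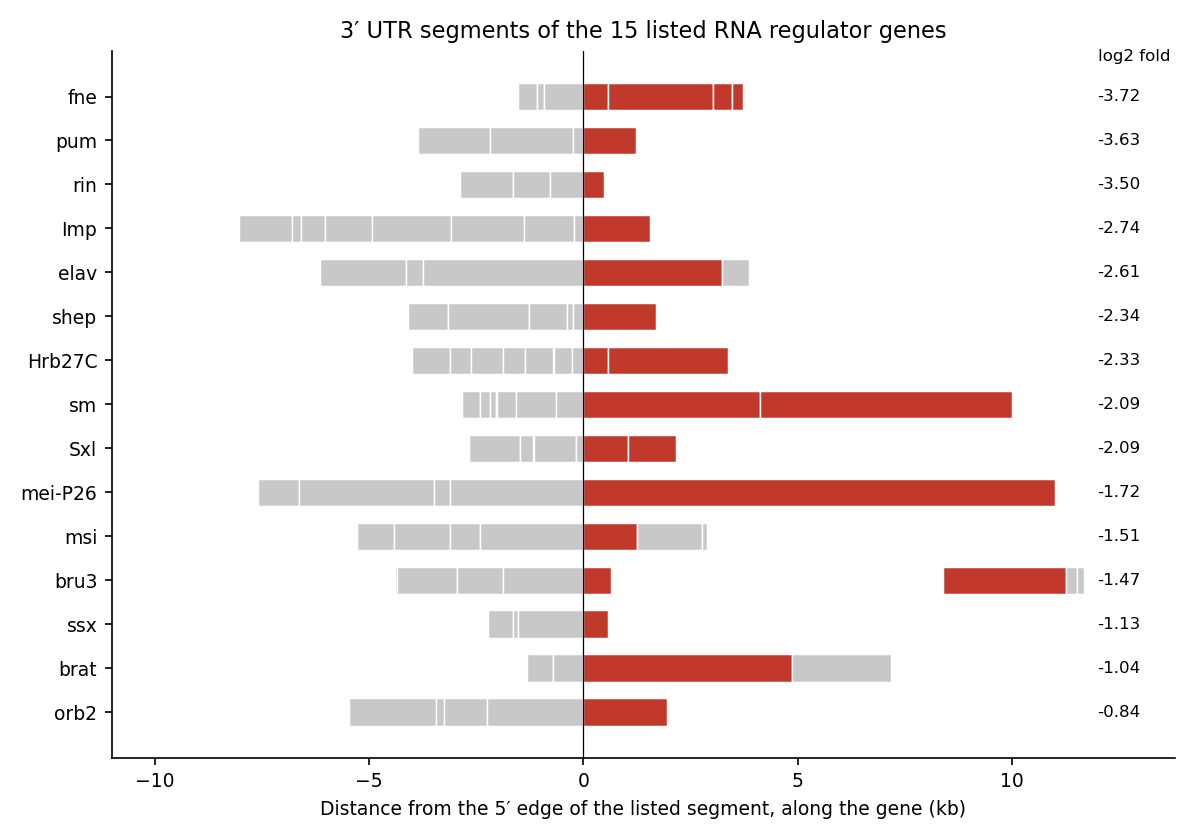
Segments of the 3′ UTR of 15 listed RNA regulator genes, drawn 5′ to 3′ with position 0 kb at the 5′ edge of the listed segment, in order of the authors' log2 fold (right). Red marks the listed segments and grey the other adjoining 3′ UTR segments of the gene. In all 15 genes grey segments precede the red ones, and in elav, msi, bru3 and brat further grey segments follow them, while the joined row of bru3 has a gap inside it.

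Transcription factor genes reached lower folds than most groups, with a median log2 fold of -1.64. The share of their list that had a row, 9 of 61 (14.8%), was smaller than that of the RNA regulators (30%). The homeobox gene ct (Cut) had use scores of 19.6 in wild type and 4.9 in the mutant and, in the authors' deposited table, a log2 fold of -4.31 (adjusted p = 2.0e-51). The Hox gene abd-A had -3.24 at a segment of 413 bases, and the Hox cofactor gene hth -3.19 at one of 2286 bases, in the authors' deposited table. The Hox gene Abd-B changed less, with -1.41. Neural differentiation genes pros (Prospero, -2.25) and scrt (Scratch, -1.64) were listed, as were br (Broad, -1.20), the TCF gene pan (-1.09) and jing, in the authors' deposited table. EcR, the ecdysone receptor gene, and the ecdysone-induced nuclear receptor gene Eip75B are outside that list and had -2.10 and -2.08, at mean counts of 20.3 and 15.4, in the authors' deposited table.

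Guidance and adhesion genes contributed 6 of 65 (9.23%), with a median fold of -1.17. The Wingless receptor gene fz2 stood apart from the other 5 genes, with use scores of 7.8 and 2.4 and a fold of -3.46 at a segment of only 171 bases, as the authors' deposited table gives them. Neuroglian (Nrg), the fly L1-type adhesion molecule, had a fold of -2.57. Fas2 (-1.29), Dscam1 (-1.04), the N-cadherin gene CadN (-0.98) and the semaphorin receptor gene PlexA (-0.85) lay above the median of the 149 folds in the authors' deposited table.

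Fewer synaptic and cytoskeletal genes were listed. Synaptic vesicle and release genes gave 3 of 45 (6.67%), and one of them, Syt1, the calcium sensor of transmitter release, had a low fold of -3.03 with use scores of 28.1 and 10.8. Dap160 (-1.19), an intersectin of the endocytic machinery, and CASK (-0.78) were the other 2 in the authors' deposited table. Cytoskeleton and transport genes gave 3 of 49 (6.12%), namely the stathmin gene stai (-2.14), the GSK3 kinase gene sgg (-1.37) and Map205 (-1.01). Ion channel and transporter genes gave 5 of 49 (10.2%). The sodium-calcium exchanger gene Calx had -2.10 and the potassium channel gene Shal -1.60 in the authors' deposited table. A beta subunit gene of the sodium pump, nrv3, had -1.57, and its alpha subunit gene Atpalpha only -0.77. The calcium-activated potassium channel gene slo had -0.81.

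Signalling genes gave 11 of 58 (19.0%), with a median log2 fold of -1.40. Genes of G protein and calcium signalling led in the authors' deposited table, with Galphao at -2.06 and Cam (calmodulin) at -2.04. Atpalpha (1101), Ald (1185) and Bacc (951, log2 fold -0.95) were among the 5 highest mean counts. The paralogous 14-3-3 genes had the highest of all 149 and differed in size, since 14-3-3zeta had -1.78 (wild-type use score of 57.7) and 14-3-3epsilon -0.86 (58.8). The ERK kinase gene rl had -1.56, numb, a Notch inhibitor gene, -1.50, and the cAMP phosphodiesterase gene dnc -1.40 in the authors' deposited table. The remaining 4 were sgg, the G protein subunit gene Ggamma1 (-1.36), the kinase gene Pak (-1.29) and the casein kinase 1 gene dco (-1.09). Of metabolism, proton pump and translation genes, 5 of 35 were listed (14.3%). Lactate dehydrogenase (Ldh) had -2.76, the proton pump gene Vha26 -1.65, eEF1alpha1 -1.29, SelR -1.28 and the aldolase gene Ald -1.05 in the authors' deposited table.

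Genes in no list were the majority, 93 of 149, and they held several of the lowest folds. CG43759 had the lowest fold, -6.47 (adjusted p = 9.2e-70), with a use score of 17.4 in wild type and 1.92 in the mutant, in the authors' deposited table. CG17684 had -4.63 in the authors' deposited table, at a segment with a mean count of 23.9 (adjusted p = 2.4e-05). The kinase gene Tlk (-4.26), the striatin gene Cka (-3.40), DIP1 (-3.36), the Tec-type kinase gene Btk29A (-3.06), RhoGAP18B (-2.99), enc (-2.98) and CG7971 (-2.90) were also among the 20 lowest in the authors' deposited table. The widths of these 9 segments ran from 251 bases (CG17684) to 1094 bases (enc), all below the median of the 149.

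The place and length of the segments are described next. They lay almost wholly in annotated 3′ UTRs, with 130 of 149 entirely inside and 137 at 90% or more, on the BDGP6.54 annotation. No row lay wholly outside annotated 3′ UTRs, and whether this was a condition for being listed is not stated in the labels or headers. The lowest share was that of Cdep, with 28.6% of 7489 bases. The median segment was 1630 bases wide, with quartiles of 823 and 2372 and a range from 153 (Mlf) to 11011 bases, and together they covered 288327 bases. The last segment of the gene was part of 105 rows (70.5%), and 32 rows joined several segments. In 141 genes, 3′ UTR segments lay upstream of the listed one and summed to a median of 1825 bases. The listed part was longer than this sum in 66 of the 141. The sum takes in every such segment of the gene, also those that do not adjoin the listed one, as at hth and Sxl. The lengths compared thus need not belong to the same 3′ UTR. An annotated transcript end lay within 10 bases, on either side, of the 5′ edge of the listed segment in 74 genes. One lay within 10 bases of its 3′ end in 124. The shares of last segments and of nearby transcript ends were not counted over all annotated segments. The listed genes had a median of 17 segments, against 4 over all 12624.

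The authors coded 120 of the 149 segments TE (80.5%), 19 LE (12.8%), 7 AL (4.70%) and 3 CE (2.01%). What the codes mean is not stated in the labels or headers, and they are quoted as codes. Among all 20927 3′ UTR segments of genes with at least 2 segments, TE was 37.1%, LE 50.4%, AL 1.10% and CE 6.65%. Median log2 folds were -1.50 for TE and -1.24 for LE in the authors' deposited table, and the LE segments were the wider, with medians of 1944 against 1609 bases. Listed segments were also wide for their code. The 68 rows made of a single last TE segment had a median of 1231.5 bases, against 279.5 over 2970 such segments of the annotation. The part of width in a segment's being listed was not tested.

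By chromosome arm, 36 genes were on 3R, 35 on X, 30 on 3L, 26 on 2R, 20 on 2L and 2 on chromosome 4. The 35 X-linked genes were 23.5%, against 16.0% of all 12624 genes, and 33 of 147 remained without elav and fne, which are both X-linked.

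Set beside the elav single mutant of the same age, the double mutant gave folds of similar size. Both comparisons use the same 3 wild-type libraries, so their values are not independent, and the difference between the mutants was not tested, for want of values per library. The authors listed 185 genes in elav (1.47% of 12624), and 121 genes have an identical segment in both tables. At these 121 the median log2 fold was -1.49 in elav-rbp9 and -1.55 in elav, in the authors' deposited tables. The median ratio of mean normalised counts, elav-rbp9 over elav, was 0.646 over these 121 genes. Counts were normalised within each comparison and depth is unknown, so this ratio does not show which values rest on more reads. The use score of the same wild-type libraries also differed between tables, for example 45.5 against 54.2 at elav, so scores are compared only within a table.

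The genes whose folds differed most went in both directions. Lower in elav-rbp9 than in elav were Cka (-3.40 and -2.51), CG43759 (-6.47 and -5.83), Mlf (-1.40 and -0.82), Calx (-2.10 and -1.61) and nocte (-1.82 and -1.43), in the authors' deposited tables. Higher in elav-rbp9 were ct (-4.31 and -5.79), pxb (-2.50 and -3.64), luna (-0.76 and -1.55), cic (-2.51 and -3.25) and Spn (-1.12 and -1.84), in the authors' deposited tables. These genes were chosen for their difference, which is a description. The folds of the paralog fne were -3.72 and -4.13 and those of elav -2.61 and -2.68.

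**Figure D3:**
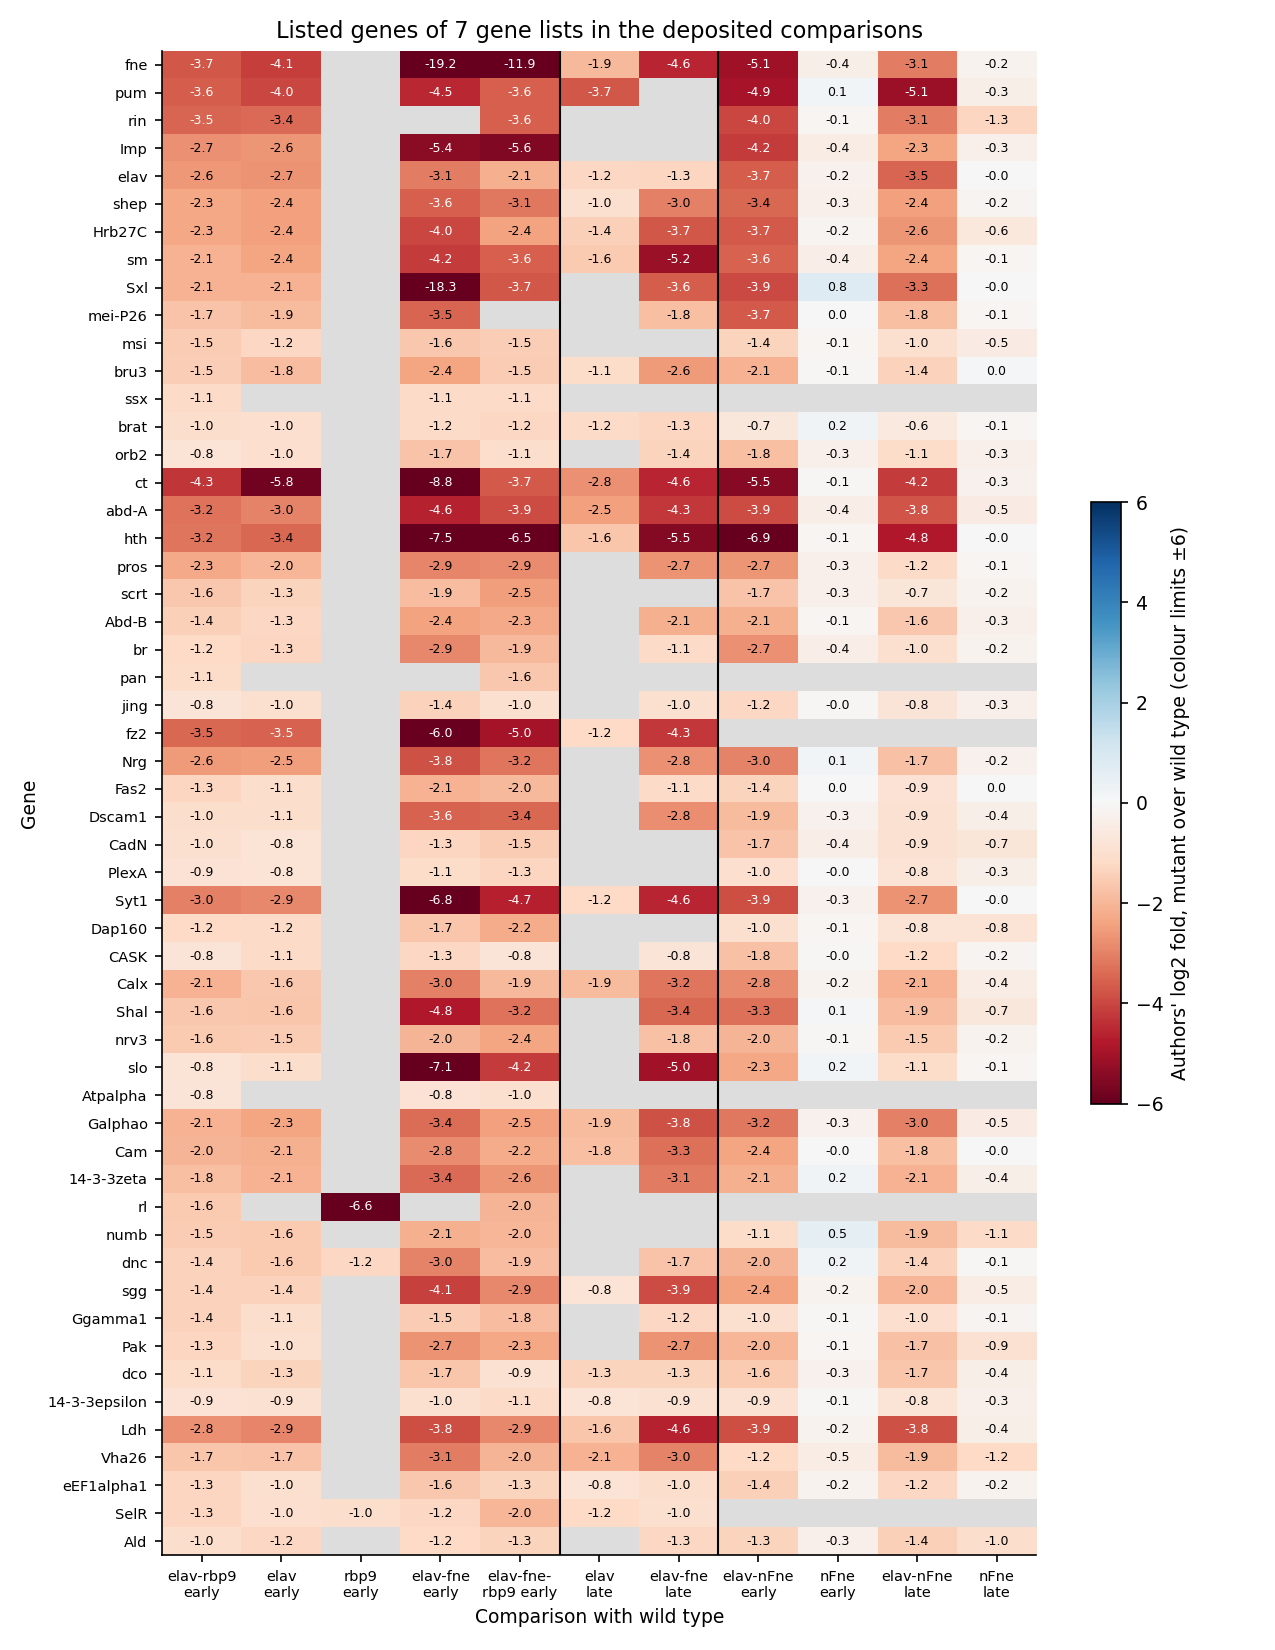
Authors' log2 folds of the listed genes of 7 gene lists (rows) in 11 comparisons with wild type (columns), where grey means no row for the gene and colours saturate at 6. Black lines separate early, late and second-experiment columns; the segments compared can differ between columns, as at rl in rbp9. The elav-rbp9 column ranges from -4.31 at ct to -0.75 at jing, and the nFne columns from -1.31 at rin late to 0.75 at Sxl early.

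The rbp9 single mutant list is short, with 6 genes (0.0475% of 12624), namely rl, Rala, CG12164, RpL27, dnc and SelR. Of these, dnc, rl and SelR are also in the elav-rbp9 list. At identical segments dnc had -1.40 in elav-rbp9, -1.58 in elav and -1.25 in rbp9, and SelR had -1.28, -0.996 and -1.04, in the authors' deposited tables. At rl the segments differed. The rbp9 row, with -6.56, is at segment 14 of the gene, and the elav-rbp9 row, with -1.56, is at segment 16, in the authors' deposited tables.

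A total of 13 genes of the elav-rbp9 list have no row in the elav table. Lack of a row means only that the authors' limits were not met there, and no value is given for such a gene. Of the 13, 5 were listed in at least 1 further mutant that includes rbp9 and in no comparison of the first experiment without it. They are CG17684, CG11319, rl, eRF3 and Liprin-gamma. The release factor gene eRF3 had -1.24 in elav-rbp9, -1.59 in elav-fne-rbp9 and -1.13 in fne-rbp9, at an identical segment, in the authors' deposited tables. At rl, the corresponding folds were -1.56, -2.02 and -2.13. CG17684 had -4.63, -4.82 and -3.40, and CG11319 had -1.87, -2.13 and -1.48, in the authors' deposited tables. Liprin-gamma, a gene of the liprin family of synaptic scaffold proteins, had -0.93 and, in elav-fne-rbp9, -0.997, and it has no row in fne-rbp9. All 5 genes lie on chromosome 2, as does Rbp9 (2L:2954762-2968434), and 46 of the 149 listed genes do. The elav-fne-rbp9 list holds 2.25% of 12624 genes and the fne-rbp9 list 0.309%. These 5 genes were grouped after their values were seen, and the part of the genetic background of chromosome 2 was not tested.

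Of the remaining 8 genes without a row in elav, most were listed where fne was also mutated. The folds of 5PtaseI were -0.97 in elav-rbp9, -2.05 in elav-fne and -1.59 in elav-fne-rbp9, and those of the calcium pump gene SPoCk were -0.87, -1.26 and -1.34, in the authors' deposited tables. For RhoGAPp190 they were -0.78, -1.04 and -0.81, and for Atpalpha -0.77, -0.85 and -0.97, where the last 2 are of a longer run of segments that includes the first. The folds of ssx in the same order were -1.13, -1.15 and -1.14, and it also had -2.98 in the fne single mutant, at an identical segment, in the authors' deposited tables. In addition, olf413 had -0.83 in elav-rbp9 and -0.95 in elav-fne, pan -1.09 in elav-rbp9, -1.60 in elav-fne-rbp9, where an adjoining segment is joined to it, and -1.38 in fne, at another segment, and Eip75B, with -2.08, had no row in another early table.

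The opposite pattern appeared at 7 genes that were listed in elav-rbp9 and in elav and had no row in elav-fne (1.86% of 12624 genes listed) or elav-fne-rbp9. They are CG43759, DIP1, RhoGAP18B, CG15747, CG1504, HIP-R and EcR, and 6 of the 7 are X-linked, against 35 of all 149. The exception is EcR, on 2R. Their folds in elav-rbp9 and elav were -6.47 and -5.83 at CG43759, -3.36 and -3.20 at DIP1, -2.99 and -3.20 at RhoGAP18B, -1.92 and -1.99 at CG15747, -1.60 and -2.12 at CG1504 and -0.97 and -0.95 at HIP-R, in the authors' deposited tables. This group was chosen after its values were seen, and the part of the genetic background of the X chromosome was not tested.

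The late embryo comparisons share no library with early elav-rbp9. In elav mutants aged 18 to 22 h the authors listed 73 genes (0.578% of 12625), and 54 of them are in the elav-rbp9 list. That is 74.0% of the late list and 36.2% of the elav-rbp9 list. At 22 genes with identical segments the median log2 fold was -2.42 in early elav-rbp9 and -1.66 in late elav, in the authors' deposited tables. The folds of these 22 genes varied together (Pearson's r = 0.67, Spearman's rho = 0.77, across genes). The elav-fne late list of 172 genes (1.36%) held 110 genes of the elav-rbp9 list, which is 64.0% of it and 73.8% of the elav-rbp9 list. At 50 identical segments the order of the medians was the other way, with -1.48 in early elav-rbp9 and -2.34 in late elav-fne (Pearson's r = 0.70, Spearman's rho = 0.62). Stage and genotype both differ here, so their parts cannot be told apart. Both correlations cover only genes that met the authors' limits in both tables. A gene without a late row has no late value, so the correlations do not extend to such genes. Among named genes, hth had -3.19 in early elav-rbp9, -1.64 in late elav and -5.52 in late elav-fne, and Syt1 had -3.03, -1.20 and -4.56, in the authors' deposited tables. Tlk differed less, with -4.26, -3.35 and -3.99, and DIP1 had -4.01 in late elav and no row in late elav-fne. CG43759 (-3.26), RhoGAP18B (-3.45), CG1504 (-1.85) and, at another segment, CG15747 (-1.61) were likewise listed in late elav and not in late elav-fne. HIP-R and EcR had no row in either.

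The second experiment has its own wild-type libraries. Its tables hold only genes that come from the elav early list, so they are no free sample of genes, and 128 of the 149 have values in them. The adjusted p of a gene is the smallest over its segments in the authors' deposited table, and an adjusted p under 0.05 is taken as passing. In early elav-nFne embryos 113 of the 128 passed and were lower (88.3%), while 82.1% of all 173 genes with values did so. The other 45 genes of the set gave 29 lower (64.4%). Their median log2 fold was -1.43, beside -2.05 for the 128, in the authors' deposited table. All 128 folds were below 0. In late elav-nFne embryos 122 of 128 passed and were lower (95.3%), against 90.7% of all 172 genes with values, with a median of -1.59. The other 44 genes with values gave 34 lower (77.3%), with a median of -1.07. At 113 identical segments the folds of early elav-rbp9 varied with those of elav-nFne, early (Pearson's r = 0.58, Spearman's rho = 0.64) and late (Pearson's r = 0.60, Spearman's rho = 0.66), across genes.

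The nFne embryos, in which elav is intact, differed far less from wild type at these genes. In early nFne, 2 of 128 passed and were lower, against 2.89% of 173 genes, and the median log2 fold was -0.13 in the authors' deposited table. The 2 genes were CG7556 (-1.36, adjusted p = 0.014) and fne itself (-0.37, adjusted p = 0.0075), by the authors' deposited table. In the authors' deposited table Sxl was higher, with 0.75 (adjusted p = 0.034), and HIP-R, although its fold was only 0.03, also passed. In late nFne, 19 of 128 passed and were lower, against 14.5% of 173 genes, with a median of -0.35. With a limit of 0.01 on the adjusted p these counts were 1 early and 10 late. The other 45 genes gave 3 lower early (6.67%) and 6 late (13.3%), with median log2 folds of -0.24 and -0.45. Among the 128 genes, the lowest folds of those that passed late were at Vha26 (-1.20), cic (-1.18), numb (-1.15), Map205 (-1.09) and Ald (-1.05), in the authors' deposited table. Others that passed included the kinase genes Pak (-0.90) and Hipk (-0.74), the dynein light chain gene ctp (-0.81), the phosphatase genes Mkp3 (-0.58) and Ptpmeg2 (-0.45), and Hrb27C (-0.63). Folds nearer 0 passed at Cdep (-0.30), fne (-0.23) and, just above 0, HIP-R (0.02). The remaining genes that passed were E(Pc) (-0.76), stx (-0.67), btsz (-0.72), CG11030 (-0.91), pxb (-0.54) and CG30116 (-0.89). The nFne folds showed no relation to those of elav-rbp9 at the 113 identical segments (Pearson's r = -0.00 early and -0.07 late). Early, all 128 genes had a lower fold in elav-nFne than in nFne, and late 124 of 128 did; the tables of 1 stage share their wild-type libraries.

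**Figure D4:**
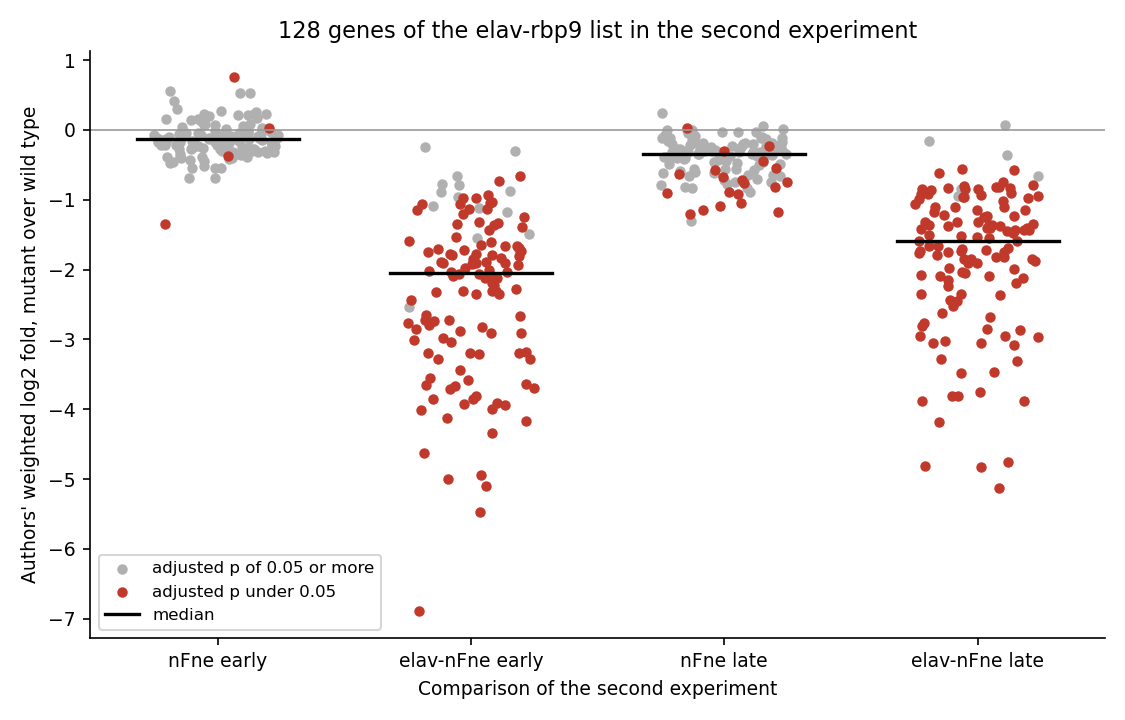
Authors' weighted log2 folds over wild type (vertical axis) of 128 genes of the elav-rbp9 list in the 4 comparisons of the second experiment (horizontal axis), where each point is a gene, red points have an adjusted p under 0.05 and black lines are medians. The medians are -0.13 and -0.35 in nFne and -2.05 and -1.59 in elav-nFne.

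A total of 15 genes did not pass in early elav-nFne. Some had low folds on few counts, as RhoGAP92B (-2.54, adjusted p = 0.21, mean count 12.6) and numb (-1.11, adjusted p = 0.35, mean count 9.80), in the authors' deposited table. CadN, with a mean count of 477, had -1.72 and an adjusted p of 0.079. The others were Vha26 (-1.18), Rgk1 (-1.55), BicD (-1.49), Dap160 (-0.97), CG11030 (-0.78), Nc73EF (-0.88), put (-1.08) and the 5 X-linked genes that follow. Of the 6 X-linked genes named above, 5 have values in the second experiment, and none passed in elav-nFne at either age. The segment of the other gene, CG1504, had a mean count of 0 in every comparison of that experiment. CG43759, with -6.47 in elav-rbp9, had -0.89 early (adjusted p = 0.14) and -0.84 late (adjusted p = 0.28) in the authors' deposited tables. DIP1 had -0.66 at both ages, RhoGAP18B -0.79 and -0.36, CG15747 -0.30 and -0.16, and HIP-R -0.25 and 0.07, in the authors' deposited tables. The mean counts of DIP1 there were 112 early and 100.4 late. EcR, by contrast, passed in both, with -3.01 and -3.82, and so did most genes of the lists, among them hth (-6.89 and -4.82), ct (-5.47 and -4.18) and fne (-5.10 and -3.07). In late elav-nFne, the authors' deposited table leaves 1 further gene short of the threshold, br (-0.95, adjusted p = 0.089).

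Adult heads show where these genes are expressed in a tissue rich in neurons. The 2 wild-type head libraries carried high photoreceptor marker levels, with the rhodopsin gene ninaE at 7648 and 7960 TPM. The neuronal markers looked at ran from elav, at 13.4 and 13.3 TPM, to nSyb, at 291 and 296 TPM. The germline markers vas and bam were under 1 TPM in both. Markers of other tissues were present too, so these levels are not those of neurons alone. Of the glial genes, Gs2 had 813 and 624 TPM, above nSyb, nrv2 had 197 and 152 TPM and repo 14.55 and 15.0025 TPM. The muscle genes Mhc and Act88F had 575 and 642 and 6.28 and 30.4 TPM. The fat body markers differed, with Lsp2 at 169 and 113 TPM, Fbp1 at 3.12 and 2.20 TPM and Yp1 at 0.359 and 0.187 TPM. The median level of the 149 genes was 20.998 and 21.6 TPM, against 5.51 and 5.71 TPM over the 12624 genes. Only abd-A and Abd-B, Hox genes of the abdomen, were under 1 TPM in both libraries among the 149, while 33.5% of the 12624 genes were. The highest levels were those of eEF1alpha1 (953 and 975 TPM), Atpalpha (912 and 919 TPM) and Cam (616 and 647 TPM). The part of expression level in a gene's being listed was not tested.

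**Figure D5:**
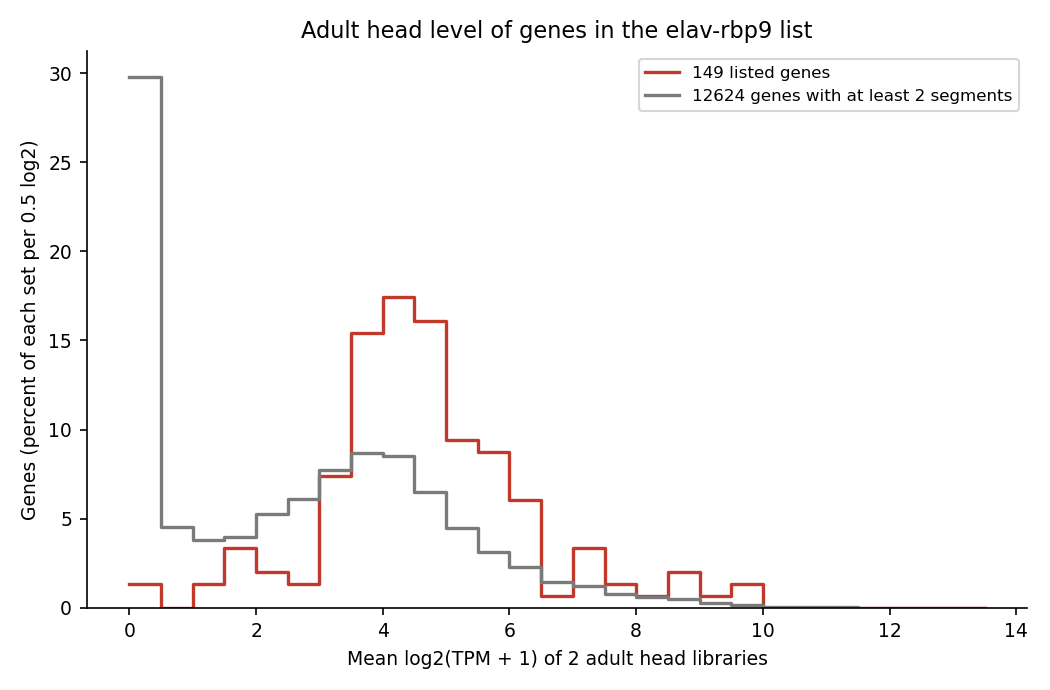
Mean log2(TPM + 1) of 2 wild-type adult head libraries (horizontal axis, bins of 0.5) for 149 listed genes (red) and 12624 genes with at least 2 segments (grey), as percent of each set (vertical axis). The grey curve has its peak in the lowest bin and the red curve near 4.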

How the data were processed

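Stranded poly(A) libraries of pooled male embryos were compared by the authors, and the files hold their comparisons, not values per library. Each row of the deposited table gives a log2 fold of segment use with its p-value, raw and adjusted. Fitted use scores, a dispersion and a mean normalised count are deposited as further scores, per the file headers. Neither the tool nor its settings are stated in the labels or headers. The build is dm6, per the submitters' processing notes, and the annotations name rtracklayer 1.40.5, per the file headers. Adult head levels are in TPM, as deposited by the authors, and all 17753 genes in the files sum to 360087 and 365410 TPM, so the files leave out some of each total. No label says whether replicates are separate crosses or collections, and the spread behind the authors' p-values may thus be technical.

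No test of a group difference was run here. Rows were joined by gene ID and segment number, placed on Ensembl release 115 (BDGP6.54, same assembly and chromosome names), counted and summarised by medians, after the counting code had been tested on simulated data. All 149 rows matched their gene and strand. Gene symbols come from a reference table of gene IDs, and 21 names of the gene lists had no match in it by that spelling. Genes were named by these rules: members of the gene lists, the 20 lowest folds, the 5 rows nearest the upper limit, the 5 highest and 5 lowest counts, the ELAV family, rows absent from the elav table, the 5 largest differences from elav in each direction, and genes that passed in nFne. Members and lists were chosen with earlier results of these data known. Head levels used a pseudocount of 1 on the log2 scale. Python 3.11.15 was used with pandas 2.3.3, numpy 2.4.6, scipy 1.17.1 and matplotlib 3.10.9.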

Additional observations from a re-analysis of the deposited data

How the results depend on the processing

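No paired analysis was possible because the files used hold no values per library, and leaving out each replicate could not be run for the same reason. A planned search for sequence motifs was not run, since no genome sequence was used. The alternatives numbered 28 for 10 results. The number of listed genes ranged from 117 to 137 under the stricter limits. The median log2 fold of the list was -1.49 with adjusted p under 1e-06, -1.40 with mean counts of at least 50, -1.31 without rows that join several segments, and, in alternatives chosen after seeing the data, -1.49 for segments at least 90% in 3′ UTR and -1.50 for TE segments. At an adjusted p under 0.01, members lower in nFne numbered 1 early and 10 late. With identical segments required, 22 members were in the late elav list and 50 in the late elav-fne list. Where sharing at least 50% of both segments was enough, an alternative chosen after seeing the data, these counts were 46 and 100. The cause of the lower counts was not tested. The median segment was 1386 bases without joined rows. With a pseudocount of 0.1 the median head level of members was 4.42 in place of 4.48 on the log2 scale. Depth per library is unknown, and its effect on precision was not tested.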
